A study of Homo sapiens with 6 samples.

Results

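The 3 genes described here encode enzymes of the pentose phosphate pathway, namely PGD (phosphogluconate dehydrogenase), TALDO1 (transaldolase) and TKT (transketolase). They were chosen by symbol, with the brightest probe set of each gene over the 6 arrays, and are 3 of the 14884 genes with a named probe set. Each had 1 probe set, 16658864 for PGD, 16720318 for TALDO1 and 16955064 for TKT.

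RNA came from SH-SY5Y, a human neuroblastoma line with features of sympathetic neurons, grown in serum-containing medium. One group received securinine, a plant alkaloid, at 30 µM for 24 h, another 16F16 at 4 µM for 24 h, and the mock group the solvent methanol for 24 h. Protein disulfide isomerase, which rearranges disulfide bonds in the endoplasmic reticulum, is the enzyme that both compounds inhibit according to the labels, and their doses differed. Each group had 2 arrays (Affymetrix Human Gene 2.0 ST) that the labels call biological replicates of this single line, with nothing on how the cultures were separated, so p-values measure the spread between these samples, which may be technical. Fewer cells of a type and less RNA per cell cannot be told apart in such bulk RNA.

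Array medians lay between 4.16 and 4.23 on the log2 scale, and arrays correlated across probe sets at 0.986 to 0.990 within groups and at 0.979 to 0.986 between groups. Of 11 measured markers of noradrenergic neuroblastoma, 10 lay above the upper quartile of all probe sets on all 6 arrays, the exception being TH, which did so on 0 arrays. The mean of the 11 was 8.78 to 8.86 on the securinine arrays and 9.09 to 9.14 on the 16F16 arrays, against 9.59 to 9.60 on the mock arrays, so the groups did not overlap, and the part of this in the results on the members was not tested. Of 6 measured markers of epithelial, blood, endothelial and fibroblast cells, 0 lay above the upper quartile on all arrays. The fibroblast marker LUM did so on 3 arrays, and only the endothelial marker PECAM1 lay below the median on all 6.

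The pentose phosphate pathway branches off glycolysis. Its oxidative branch, in which PGD acts last, oxidises glucose phosphate to a pentose phosphate and yields NADPH, the cofactor that glutathione reductase and thioredoxin reductase need. Its reversible non-oxidative branch, in which TKT and TALDO1 act, moves carbon units between pentose phosphates and the sugar phosphates of glycolysis. The ribose phosphate it shares with the oxidative branch is the sugar of nucleotides. Genes of both branches are known targets of NRF2, a transcription factor that responds to oxidants and electrophiles by binding antioxidant response elements.

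To show what lies ahead of each gene, the 250 bases before the annotated start of transcription are given 5′ to 3′ on the gene's strand, from RefSeq (GRCh38.p14), with all 3 genes matched. Capitals mark the core of the antioxidant response element, TGACNNNGC, searched on both strands of a window of 250 bases before and 50 bases after the start. The windows lie at chr1:10398814-10399063 on the plus strand for PGD, at chr11:747214-747463 on the plus strand for TALDO1 and at chr3:53256023-53256272 on the minus strand for TKT.
PGD: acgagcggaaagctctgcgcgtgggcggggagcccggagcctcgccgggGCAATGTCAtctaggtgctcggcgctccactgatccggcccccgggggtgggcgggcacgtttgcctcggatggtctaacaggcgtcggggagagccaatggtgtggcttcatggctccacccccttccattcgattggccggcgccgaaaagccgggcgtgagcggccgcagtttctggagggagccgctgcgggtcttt
TALDO1: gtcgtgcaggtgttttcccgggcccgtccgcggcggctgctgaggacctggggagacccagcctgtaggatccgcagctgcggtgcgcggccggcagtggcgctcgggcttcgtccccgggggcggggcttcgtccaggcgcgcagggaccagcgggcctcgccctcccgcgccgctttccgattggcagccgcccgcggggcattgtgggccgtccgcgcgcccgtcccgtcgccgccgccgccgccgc
TKT: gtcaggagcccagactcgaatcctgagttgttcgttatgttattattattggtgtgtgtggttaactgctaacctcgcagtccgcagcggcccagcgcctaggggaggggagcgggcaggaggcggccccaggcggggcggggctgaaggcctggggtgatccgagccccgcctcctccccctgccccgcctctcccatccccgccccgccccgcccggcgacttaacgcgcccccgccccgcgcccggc

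PGD had 1 match, which begins at position -201 from the start and reads on the strand opposite to the gene. TALDO1 and TKT had 0 matches in their windows. Of all 35116 promoter windows of this length in the table, 13.3% held the letters. A match is a run of letters and not a measured binding site.

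With securinine TKT and TALDO1, both enzymes of the non-oxidative branch, moved in opposite directions. TKT rose 1.51-fold, TALDO1 fell to 0.613 times its mock level, and PGD did not pass. In limma 1 of the 3 members was called higher and 1 lower at an adjusted p under 0.05, where 8.40% of the 14884 genes were called higher, 10.6% lower and 19.0% either way. Counts over 3 genes are too small to be set apart from that background.

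TKT, which transfers carbon pairs between sugar phosphates with thiamine diphosphate as cofactor, measured 10.32 and 10.29 (log2 expression) in securinine cultures, 10.05 and 9.89 in 16F16 cultures, and 9.77 and 9.66 in mock cultures. All securinine arrays lay above all 16F16 arrays, and these above all mock arrays. The difference of securinine from mock was 0.59 ± 0.094 in log2 units (SE over n = 2 arrays in each group), with a 95% interval of 0.36 to 0.83 and an adjusted p of 0.0126 in limma. It was the rise of rank 543 among the 14884 genes. The call ended when an array was left out, at adjusted p-values of 0.0602 or 0.0792 for mock replicates 1 or 2 and of 0.0740 or 0.0630 for securinine replicates 1 or 2, and over all 53617 probe sets (0.0531), always with TKT higher.

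TALDO1, which passes a carbon unit from sedoheptulose phosphate to glyceraldehyde phosphate, measured 5.34 and 5.40 in securinine cultures, 5.90 and 5.67 in 16F16 cultures, and 6.07 and 6.08 in mock cultures (log2 expression). The order of the groups was the reverse of that of TKT, again without overlap. The difference of securinine from mock was -0.71 ± 0.10 in log2 units (SE over n = 2 arrays in each group), with a 95% interval of -0.96 to -0.45 and an adjusted p of 0.0101 in limma. It was the fall of rank 559 among the 14884 genes. The call ended at adjusted p-values of 0.0631 or 0.0647 when mock replicates 1 or 2 were left out and of 0.0657 or 0.0527 when securinine replicates 1 or 2 were, always with TALDO1 lower. On 6 of 6 arrays the TALDO1 probe set was brighter than the array's median and dimmer than its upper quartile, whereas PGD and TKT exceeded the upper quartile on 6 of 6.

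PGD, which oxidises phosphogluconate and reduces NADP+ in the last oxidative step, measured 9.64 and 9.63 in securinine cultures, 9.67 and 9.65 in 16F16 cultures, and 9.78 and 9.80 in mock cultures (log2 expression). The arrays of both compounds lay below the mock arrays, and within each group the 2 values were close. The difference of securinine from mock was -0.16 ± 0.074 in log2 units (SE over n = 2 arrays in each group), with a 95% interval of -0.34 to 0.026 and an adjusted p of 0.207 in limma. An intensity trend in the variance prior brought that p to 0.0313.

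**Figure D1:**
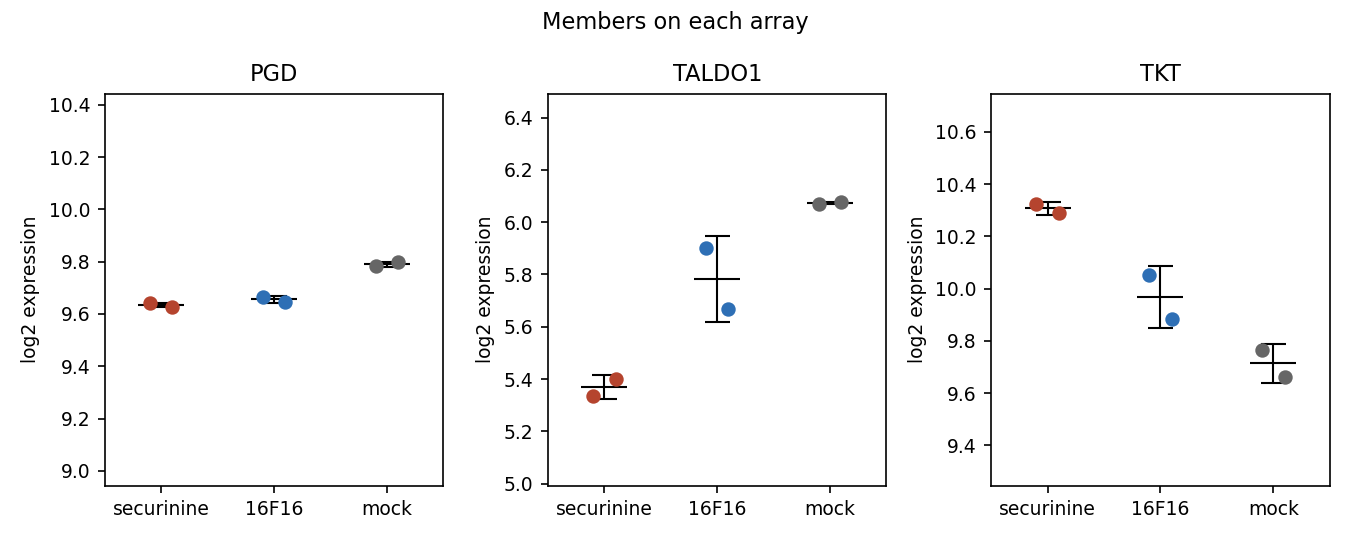
Log2 expression (vertical axis, of equal length in each panel) of PGD, TALDO1 and TKT on each array of the securinine, 16F16 and mock groups; points are arrays, and the bars are the mean and SD of 2 arrays. In all 3 panels the 16F16 arrays lie between the securinine and mock arrays, with TKT highest and TALDO1 lowest in the securinine group. For PGD the 16F16 arrays lie close to the securinine arrays.

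In all 3 members the 16F16 arrays lay between the securinine and the mock arrays with no overlap. For PGD the gap was small, with 16F16 arrays at 9.67 and 9.65 and securinine arrays at 9.64 and 9.63. Over all genes 14.7% showed such an order in either direction, 6.72% with securinine highest and 7.99% with securinine lowest. The spread between the 2 arrays of a group was widest for 16F16 in TALDO1 (SD 0.17) and TKT (SD 0.12), against 0.0042 and 0.075 in mock cultures.

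With 16F16, 0 of the 3 members passed in limma against mock, where 0.719% of all genes were called higher, 0.779% lower and 1.50% either way. At an unadjusted p under 0.05 there were 2 of the 3, beside 3139 of all 14884 genes. TKT was at 0.25 ± 0.094 in log2 units (SE over n = 2 arrays in each group; 95% interval 0.021 to 0.49, adjusted p = 0.208), a ratio of 1.19. TALDO1 was at -0.29 ± 0.10 (95% interval -0.55 to -0.036, adjusted p = 0.194 in limma), a ratio of 0.817. PGD was at -0.13 ± 0.074 (95% interval -0.32 to 0.047, adjusted p = 0.360 in limma). For TKT an intensity trend in the variance prior gave an adjusted p of 0.0228, and without 16F16 replicate 1 its difference was 0.17, against 0.34 without 16F16 replicate 2. For TALDO1 these differences were -0.41 without 16F16 replicate 1 and -0.17 without 16F16 replicate 2. Both comparisons with mock share the mock arrays.

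The compounds were set against each other at the doses used, 4 µM for 16F16 and 30 µM for securinine, so a difference between compounds and a difference between doses cannot be told apart. None of the 3 members passed in limma for 16F16 against securinine, where 5.55% of all genes were called higher, 3.96% lower and 9.51% either way. At an unadjusted p under 0.05 there were 2 of the 3, beside 4116 of all 14884 genes. TALDO1 was 0.41 ± 0.10 higher in 16F16 than in securinine cultures on the log2 scale (95% interval 0.16 to 0.67, adjusted p = 0.0630 in limma). TKT was at -0.34 ± 0.094 (95% interval -0.57 to -0.10, adjusted p = 0.0822). Leaving out dim genes brought both past the threshold, with adjusted p-values of 0.0295 for TALDO1 and 0.0402 for TKT, as did an intensity trend (0.0339 and 0.00281). PGD was at 0.021 ± 0.074, with a 95% interval of -0.16 to 0.20 and an adjusted p of 0.891 in limma.

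**Figure D2:**
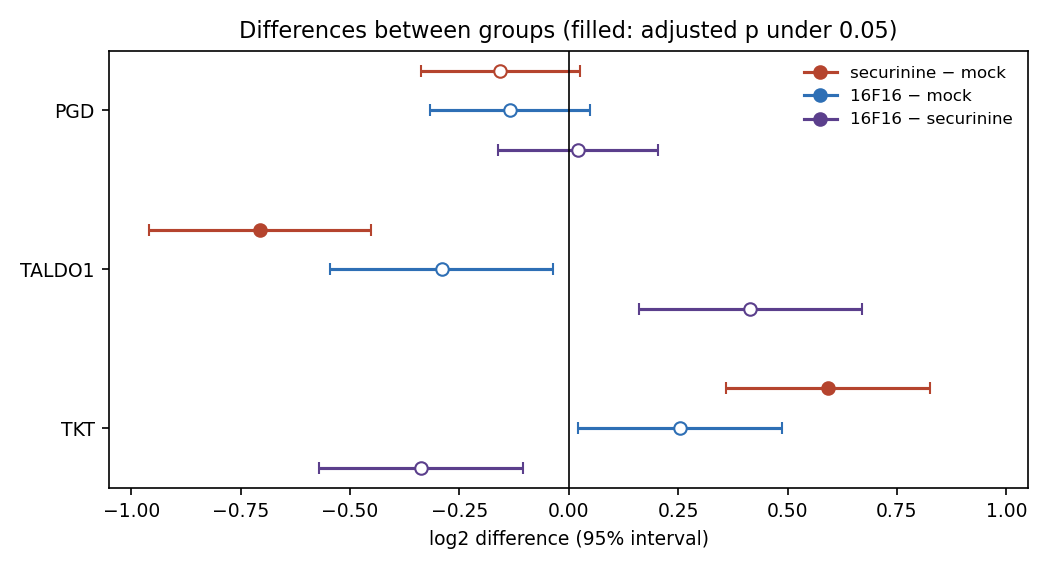
Log2 differences (horizontal axis) of the 3 members for securinine minus mock, 16F16 minus mock and 16F16 minus securinine, with 95% intervals from limma; filled points have an adjusted p under 0.05. The filled points are TALDO1 at -0.71 and TKT at 0.59, both for securinine minus mock.

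**Figure D3:**
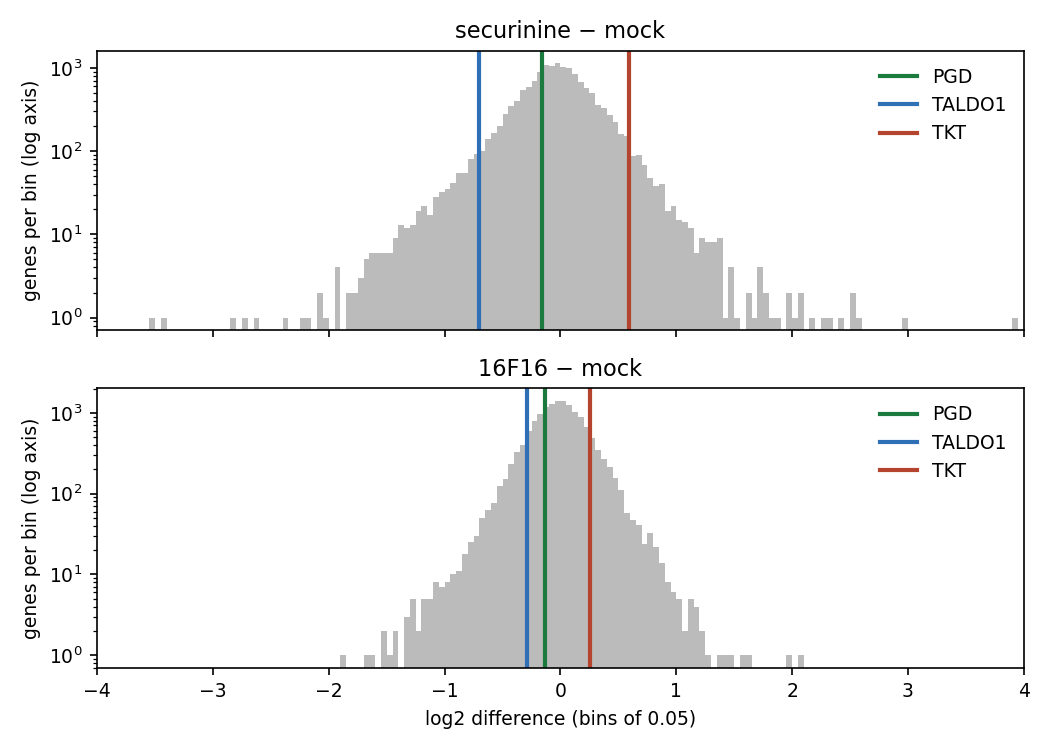
Distribution of the log2 differences of all 14884 genes (horizontal axis, bins of 0.05; number of genes on a log axis) for securinine minus mock and 16F16 minus mock, with the 3 members as vertical lines. TKT and TALDO1 lie on opposite sides of the peak, and both are nearer to it for 16F16 minus mock.

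The leave-one-out fits above had 2 residual degrees of freedom, and the lone array of a group was assumed to vary like the other groups. None of the 14 settings tried turned the direction of TKT or TALDO1 in any of the comparisons.

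**Figure D4:**
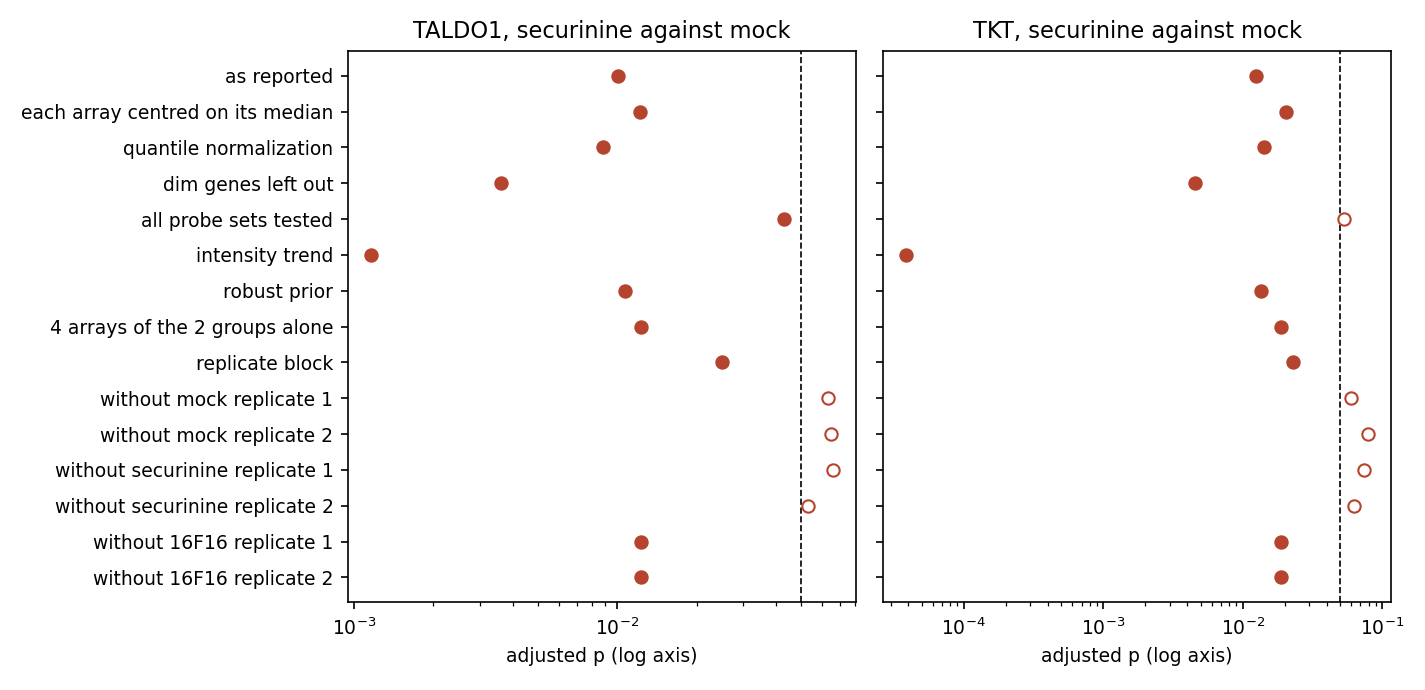
Adjusted p (log axis) of TALDO1 and TKT for securinine against mock in the reported fit and under 14 other settings; filled points are under 0.05, the dashed line. The open points are the fits without 1 mock or securinine array and, for TKT, the fit over all probe sets.

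Other genes of the pathway and of ribose phosphate metabolism were taken from a list of 19, of which 15 had a named probe set. Some of them, such as PRPS1, PRPS2, PGM2 and TIGAR, act beside the pathway and not as its enzymes, so counts over the list are not counts of the pathway alone. With securinine 1 of the 15 rose and 4 fell, beside 8.40% of all genes called higher and 10.6% lower, and the median difference was -0.19 on the log2 scale, beside -0.035 over all genes. With 16F16 1 of the 15 rose and 0 fell in limma, beside 0.719% and 0.779% of all genes. At an unadjusted p under 0.05 there were 4 of the 15, beside 3139 of all 14884 genes, and the median was 0.013, beside -0.012 over all genes. The securinine arrays lay wholly below the mock arrays for 9 of the 15 genes and wholly above for 2, where 33.9% and 27.0% of all genes did so.

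TIGAR, a sugar bisphosphatase induced by p53 that lowers glycolytic flow and favours the pentose phosphate pathway, was the gene of the list called with both compounds. It measured 7.89 and 8.005 in securinine cultures, 7.38 and 7.65 in 16F16 cultures, and 6.67 and 6.74 in mock cultures (log2 expression). Each group stood clear of the others. It rose 2.38-fold with securinine (log2 difference 1.25 ± 0.12, adjusted p = 0.00408 in limma) and 1.76-fold with 16F16 (0.81 ± 0.12, adjusted p = 0.0430). The securinine call held without any 1 array. The 16F16 call ended without any 1 array, with adjusted p-values of 0.193 or 0.219 on leaving out mock replicates 1 or 2, 0.108 for either securinine replicate and 0.0833 or 0.133 for 16F16 replicates 1 or 2.

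The 4 genes that fell with securinine make, interconvert or activate ribose phosphates. PRPS2, which makes phosphoribosyl pyrophosphate (PRPP), the activated ribose of nucleotide synthesis, measured 8.37 and 8.17 in securinine cultures, 8.89 and 8.95 in 16F16 cultures, and 9.20 and 9.19 in mock cultures (log2 expression). It fell to 0.527 times the mock level with securinine (log2 difference -0.92 ± 0.094, adjusted p = 0.00465 in limma), and the call held without any 1 array. With 16F16 it was at -0.27 ± 0.094 without passing (adjusted p = 0.189 in limma).

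PGM2, a phosphopentomutase that converts ribose phosphates into each other, measured 7.85 and 7.88 in securinine cultures, 8.38 and 8.28 in 16F16 cultures, and 8.51 and 8.44 in mock cultures. The log2 difference of securinine from mock was -0.61 ± 0.082 (adjusted p = 0.00861 in limma), and the call ended on leaving out mock replicates 1 or 2 (0.0616 or 0.0531) or securinine replicate 1 (0.0594). PRPS1, the sister enzyme of PRPS2, measured 7.28 and 7.33 in securinine cultures, 7.62 and 7.45 in 16F16 cultures, and 7.75 and 7.94 in mock cultures. RPIA, the isomerase that forms ribose phosphate, measured 8.03 and 7.92 in securinine cultures, 8.27 and 8.19 in 16F16 cultures, and 8.44 and 8.38 in mock cultures.

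For securinine against mock PRPS1 fell by 0.54 on the log2 scale (SE 0.11, adjusted p = 0.0226 in limma) and RPIA fell by 0.44 (SE 0.086, adjusted p = 0.0227). All securinine arrays of PGM2, PRPS1 and RPIA lay below all mock arrays, and the 16F16 arrays lay between them. For PRPS1 the call ended without mock replicate 1 (0.0622) or 2 (0.112) and without securinine replicate 1 (0.110) or 2 (0.0882). For RPIA it ended without mock replicate 1 (0.119) or 2 (0.0916) and without securinine replicate 1 (0.0715) or 2 (0.106). With 16F16 PGM2 was at -0.14 ± 0.082, PRPS1 at -0.31 ± 0.11 and RPIA at -0.18 ± 0.086, and none of them passed in limma (adjusted p = 0.386 for PGM2, 0.186 for PRPS1 and 0.301 for RPIA).

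**Figure D5:**
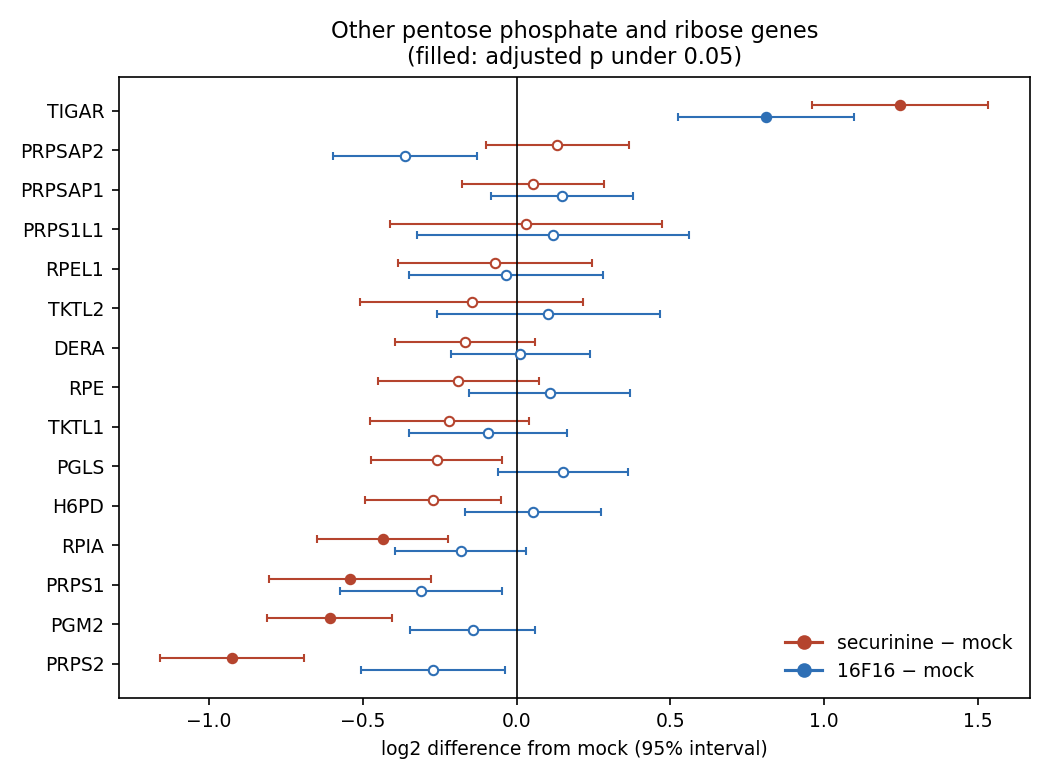
Log2 differences from mock (horizontal axis, with 95% intervals from limma) of the 15 other pentose phosphate and ribose genes for securinine and 16F16; filled points have an adjusted p under 0.05. TIGAR lies at 1.25 and 0.81, and PRPS2, PGM2, PRPS1 and RPIA carry filled points below 0 for securinine.

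The 2 measured enzymes of the oxidative branch besides PGD did not pass against mock. PGLS, the lactonase ahead of PGD, was at -0.26 ± 0.086 on the log2 scale with securinine (adjusted p = 0.0942 in limma) and at 0.15 ± 0.086 with 16F16. H6PD, which runs the first oxidative steps inside the endoplasmic reticulum, was at -0.27 ± 0.089 with securinine (adjusted p = 0.0917 in limma) and at 0.054 ± 0.089 with 16F16. Leaving out dim genes brought both past the threshold for securinine.

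In the non-oxidative branch the epimerase RPE was at -0.19 ± 0.11 with securinine and 0.11 ± 0.11 with 16F16, without passing. RPEL1, a close copy of RPE, and TKTL2, a relative of TKT, were dimmer than the array's lower quartile on 6 of 6 arrays. RPEL1 was at -0.070 ± 0.13 with securinine and -0.035 ± 0.13 with 16F16, and TKTL2 at -0.15 ± 0.15 and 0.10 ± 0.15. TKTL1, another relative of TKT, was at -0.22 ± 0.10 with securinine and -0.094 ± 0.10 with 16F16, without passing. Signals of such copies may be shared between probe sets. DERA, an aldolase of deoxyribose phosphate, was at -0.17 ± 0.092 with securinine and 0.013 ± 0.092 with 16F16, and PRPS1L1, a copy of PRPS1, was at 0.030 ± 0.18 and 0.12 ± 0.18. The associated proteins of PRPP synthetase did not pass against mock either, with PRPSAP1 at 0.054 ± 0.093 for securinine and 0.15 ± 0.093 for 16F16, and PRPSAP2 at 0.13 ± 0.094 and -0.36 ± 0.094.

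Between the compounds, 3 of the 15 genes were higher in 16F16 than in securinine cultures and 1 was lower, beside 5.55% of all genes called higher and 3.96% lower. PRPS2 was higher by 0.65 ± 0.094 on the log2 scale (adjusted p = 0.0210 in limma), PGM2 by 0.47 ± 0.082 (0.0305) and PGLS by 0.41 ± 0.086 (0.0435). PRPSAP2, a protein that associates with PRPP synthetase, was at -0.50 ± 0.094 (adjusted p = 0.0345), measuring 6.93 and 6.75 in 16F16 cultures, against 7.30 and 7.37 in securinine cultures and 7.24 and 7.17 in mock cultures. Its relative PRPSAP1 was at 0.095 ± 0.093 (adjusted p = 0.568). Centring each array on its median ended the PRPSAP2 call, and no call of the 4 held in a fit without 1 array, with adjusted p-values of 0.0580 to 0.0934 for PRPS2, 0.0707 to 0.144 for PGM2, 0.0858 to 0.183 for PGLS and 0.0770 to 0.145 for PRPSAP2.

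Genes with the most similar pattern were sought by the root mean square difference from a member over the 6 arrays, after each gene was centred on its own mean, among 7441 other genes at or above the median level. For TKT they were GSE1, RNF167, SON and IDI1, with differences of 0.028 to 0.042 on the log2 scale. IDI1, an enzyme of isoprenoid synthesis, was at 0.62 with securinine and 0.28 with 16F16. For TALDO1 they were CIRBP, EIF2D, UNG and METTL26, with differences of 0.031 to 0.051. CIRBP, a cold-inducible RNA-binding protein, was at -0.73 with securinine and -0.32 with 16F16, and UNG, a uracil-DNA glycosylase, at -0.66 and -0.33. For PGD they were ANAPC7, GOLGA5, RPL36AL and NIF3L1, with differences of 0.014 to 0.020, and ANAPC7, a subunit of the anaphase-promoting complex, was at -0.16 and -0.15. The 6 arrays fall into 3 groups of 2, so these values describe likeness over 6 arrays and carry no p.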

How the data were processed

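The 6 arrays were 2 each of SH-SY5Y cells given securinine, 16F16 or methanol. For 53617 probe sets the authors deposited log2 values, made with RMA, per the submitters' processing notes, which also name limma, with neither versions nor settings nor annotation build given in the sources used here. RMA makes values relative among the arrays, so a shift shared by most genes would be lost.

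Names came from a platform table giving 1 symbol to 16098 probe sets (30.0%), several to 0 and none to 37519; all 16098 matched the RefSeq table (GRCh38.p14) by gene ID. Where a gene had several (779 genes) the brightest was kept, leaving 14884 genes. lmFit and eBayes of limma (3.58.1, R 4.3.3) were run on the 6 arrays together, with group as sole term (3 residual and 2.68 prior degrees of freedom). P-values are two-sided and Benjamini-Hochberg adjusted over these 14884, with calls under 0.05. "±" after a difference is the SE of the fit. The number of arrays limits the precision (median SE 0.11 on the log2 scale). The fit was tested on simulated data.

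Members and lists were chosen with earlier results of these data known. Named were the members and all 15 measured genes of the list of other pentose phosphate and ribose genes. Also named were, for each other list, the up to 4 genes of lowest adjusted p per compound, and the 4 genes most like each member. Alternatives are array scaling, a filter on dim genes, all probe sets, variance priors, the arrays fitted, a replicate block and leaving out each array; those for single list genes were added after seeing the data. Same-numbered arrays of different groups did not deviate together (correlations of -0.032, 0.038 and -0.050).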

Additional observations from a re-analysis of the deposited data

How the results depend on the processing

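No difference of the 3 members changed sign under 14 alternative settings. The balance of calls turned in 3 cases. With securinine 1251 genes were higher and 1572 lower, but 1426 and 1073 when all probe sets were tested. With 16F16 it was 107 and 116 genes, but 101 and 99 after centring, and 1 and 0 list genes, but 1 and 3 with an intensity trend. Lists described below turned too. Of 6 regulators 0 were higher and 1 lower with 16F16, but 2 and 1 without dim genes or with an intensity trend. Between the compounds 1 of 12 genes of the NRF2 response was higher and 6 lower, beside 5.55% and 3.96% of all genes. In the fit of 2 groups alone it was 1 and 0, and leaving out either mock array turned this balance too. No member has several probe sets, so averaging them was not run. Leaving out an array gave -0.74 to -0.67 for TALDO1 and 0.54 to 0.65 for TKT, securinine against mock, each losing its call without a mock or securinine array. It gave 629 to 2462 called genes and 2 to 5 called list genes for securinine against mock, 0 and 0 for 16F16 against mock (limma, 2099 to 2904 genes at an unadjusted p under 0.05), and 0 to 324 genes and 0 list genes for 16F16 against securinine. Testing all probe sets ended the call of TKT with securinine (0.59, adjusted p = 0.0531) and left 3 list genes with securinine, 0 list genes and 0 probe sets with 16F16 (7250 at an unadjusted p under 0.05), and 0 and 0 between the compounds (9565). An intensity trend passed PGD with securinine (-0.16), TKT with 16F16 (0.25), and TALDO1 (0.41) and TKT (-0.34) between the compounds, with 1808 genes and 4 list genes for 16F16 and 3107 genes between the compounds. Leaving out dim genes passed the same values of TALDO1 (0.41) and TKT (-0.34) between the compounds, with 985 genes for 16F16 and 2418 between the compounds. The fit of 2 groups alone called 0 genes and 0 list genes for 16F16, and 324 and 0 between the compounds. The replicate block in limma left TALDO1 at -0.71 (adjusted p = 0.0250) and TKT at 0.59 (0.0230) called with securinine. It called 0 genes and 0 list genes with 16F16 (2856 at an unadjusted p under 0.05), and 503 and 1 between the compounds. The labels do not say what arrays with the same replicate number share between groups. The causes were not tested. Without detection calls, a dim probe set cannot be told from low expression.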

Other observations

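Further lists of genes linked to the pentose phosphate pathway or to NRF2 were counted in the same way. Of 12 measured genes of the NRF2 response, NADPH users among them, 7 rose and 0 fell with securinine, and 4 rose and 0 fell with 16F16. The medians were 0.58 and 0.25 on the log2 scale. The glutathione genes GCLC, GCLM and SLC7A11 of this list had no named probe set. Of all genes 8.40% rose and 10.6% fell with securinine (median -0.035), and 0.719% rose and 0.779% fell with 16F16 (median -0.012). TXNRD1, the thioredoxin reductase that consumes NADPH, rose by 1.13 ± 0.084 with securinine and 0.64 ± 0.084 with 16F16. The sulfiredoxin SRXN1 rose by 1.20 ± 0.087 and 0.61 ± 0.087, and the autophagy receptor SQSTM1 by 1.47 ± 0.080 and 1.01 ± 0.080. The peroxiredoxin PRDX1 rose by 0.62 ± 0.076 with securinine, and the biliverdin reductase BLVRB by 1.11 ± 0.11 with 16F16. TXNRD1, SRXN1 and SQSTM1 kept their securinine call without any 1 array; 3 of the 7 remained called without mock replicate 1 or 2, 4 without securinine replicate 1 and 5 without securinine replicate 2. Of 6 measured regulators 3 rose and 2 fell with securinine, and 0 rose and 1 fell with 16F16 in limma (4 at an unadjusted p under 0.05, beside 3139 of all 14884 genes), against the same shares of all genes. The transcription factor NFE2L2 (NRF2) rose by 0.56 ± 0.093, its inhibitor KEAP1 by 0.65 ± 0.077 and its partner MAFG by 0.70 ± 0.11 with securinine, and SREBF1 fell by 0.57 (SE 0.14). MYC fell by 2.62 with securinine and fell by 1.65 with 16F16, and its securinine call held without any 1 array. SREBF1 lost its call without each of the 6, and of the 3 regulators that rose, MAFG was the 1 called without mock replicate 1, and KEAP1 the 1 called without mock replicate 2, securinine replicate 1 or securinine replicate 2.

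Nucleotide synthesis and salvage are pathways that take up ribose as PRPP, though not at every step. Of 14 measured genes of these pathways 8 fell and 0 rose with securinine, with a median of -0.36. Of all genes 10.6% fell, and the median over all genes was -0.035. PPAT, which uses PRPP in the first step of purine synthesis, fell by 0.50 (SE 0.080), the purine enzyme ADSL fell by 0.75 (SE 0.095), the purine enzyme PFAS fell by 0.85 (SE 0.13), and DHODH of pyrimidine synthesis fell by 0.88 (SE 0.15). The salvage enzyme HPRT1 was the 1 gene of this list called with 16F16, where it fell by 0.61 (SE 0.090); centring each array on its median ended that call. Without mock replicate 1 or 2 the securinine fit called 0 of the 14, without securinine replicate 1 it called ADSL, and without securinine replicate 2 it called ADSL, DHODH and PFAS. Of 9 measured glycolysis genes, 2 (22.2%) were called with each compound, all lower. Over all genes 19.0% were called either way with securinine, near the share of this list, and 1.50% with 16F16. The hexokinase HK2 fell by 1.06 (SE 0.092) with securinine and by 0.97 (SE 0.092) with 16F16. HK1 fell by 0.30 (SE 0.075) with securinine and PGAM1 fell by 0.76 (SE 0.097) with 16F16. Of 15 listed genes of other NADPH sources and linked steps, 6 were measured. With securinine 2 of the 6 fell and 0 rose, beside 10.6% and 8.40% of all genes. The transhydrogenase NNT fell by 0.42 (SE 0.089) and the folate enzyme MTHFD1L fell by 0.50 (SE 0.095). The replicate block ended the NNT call (adjusted p = 0.0587 in limma). With 16F16 0 of the 6 passed in limma, beside 1.50% of all genes. At an unadjusted p under 0.05 there was 1 of the 6, beside 3139 of all 14884 genes. HK2 kept its securinine call without any 1 array, HK1 lost it without each of the 6, and NNT and MTHFD1L lost it without either mock or securinine array. Without any 1 array 0 genes in all were called with 16F16.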
